A study of Mus musculus with 9 samples.

Results

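Carbonic anhydrases are zinc enzymes that convert carbon dioxide and water to bicarbonate and a proton, and back. The gene family differs by place in the cell: some members work in the cytosol, some in mitochondria, some on the outer face of the plasma membrane, and some have lost the catalytic site. In blood, cytosolic carbonic anhydrases are known from red cells, where they act in carbon dioxide transport beside the anion exchanger Slc4a1, and Car2 is also known from osteoclasts, which use its protons to dissolve bone mineral. The 8 members described here, Car1, Car2, Car3, Car4, Car8, Car9, Car12 and Car13, were taken by symbol. Each had 1 transcript cluster (a set of probes summarized as 1 signal) on the array, and they are 8 of 18797 symbols measured. The other carbonic anhydrases on the array, also 8, serve as comparison.

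The study asked what the transcription factor GATA2 and its variant R396Q do in mouse bone marrow stem and progenitor cells. GATA2 is a zinc finger factor of blood stem and progenitor cells, and R396Q replaces an arginine in the region of its second zinc finger. Cells of 3 groups were measured on 9 arrays: 3 arrays of cells infected with a retrovirus carrying GATA2 R396Q, 3 with GATA2 wild type and 3 with the empty vector (MIE), which carries EGFP alone. In all groups the marrow was that of 8-week C57BL/6 females, taken 6 days after a dose of 150 mg/kg of 5-fluorouracil, a drug that kills dividing cells. Lin-Sca+Kit+ cells were enriched, infected in culture on consecutive days and sorted as GFP-positive after 72 h, so every group is a cultured, vector-expressing population that also keeps its own Gata2 gene. The labels do not tell whether the arrays of a group stand for different mice or cultures, so p-values measure only the spread between these samples, which may be technical.

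All values below are log2 signals after robust multiarray averaging (RMA), and a difference of 1 is a doubling. Differences were tested with limma over all 21072 clusters, with p adjusted by the Benjamini-Hochberg method and 0.05 as the threshold. Gata2 itself had signals of 10.65, 10.72 and 10.53 in R396Q cells, 11.50, 11.24 and 10.94 in wild-type cells and 9.87, 9.67 and 9.65 in empty-vector cells. It rose with wild type (adjusted p = 0.0016) and with R396Q (adjusted p = 0.0394, past the threshold in 2 of 9 fits that each left out an array). The difference of R396Q from wild type was -0.59 (adjusted p = 0.0633), without overlap of the groups. In a limma fit with the replicate number as a block, the adjusted p of that difference was 0.0222. The labels do not say which species' sequence the vectors carry, so the probes may read vector and cellular transcripts unequally. Against the labelled cell type, 12 stem and progenitor markers were measured. Relative to empty vector, 2 rose and 5 fell in wild-type cells, where 8.99% of all clusters changed. In R396Q cells 2 rose and 1 fell relative to empty vector, where 1.23% of all clusters changed. The surface proteins Kit and Cd34 were well above background in every group, and they fell in wild-type cells by 2.81 and 4.63, and Kit also in R396Q cells by 1.81 (adjusted p = 0.00046). Slamf1 rose by 3.58 with wild type (adjusted p = 0.00339) and by 3.25 with R396Q (adjusted p = 0.0188, past the threshold in 5 of 9 fits without an array). Ly6a was not analysed here.

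Of the 8 members, 2 rose in wild-type cells relative to empty vector, Car1 and Car2, and 0 fell, where 8.99% of all clusters changed, 4.64% up and 4.35% down. At an unadjusted p under 0.05 the members numbered 3 in this comparison (22.1% of all clusters), 0 in R396Q against empty vector (12.1%) and 6 in R396Q against wild type (17.7%). In R396Q cells relative to empty vector, 0 of 8 members passed the limma test, and 1.23% of all clusters changed, 0.66% up and 0.569% down. In R396Q relative to wild-type cells, 3 members fell, Car1, Car2 and Car13, and 0 rose, where 5.75% of all clusters changed, 2.67% up and 3.08% down. The F-test for any difference among the 3 groups called 2 of 8 members, Car1 and Car2, against 8.31% of all clusters, and Car13 had an adjusted p of 0.0501. The median change over the members was 0.30, 0.08 and -0.34 in wild type against empty vector, R396Q against empty vector and R396Q against wild type, where the medians over all clusters were -0.01, -0.01 and 0.00. The comparisons share arrays, so the rise with wild type and the fall of R396Q below wild type both rest on the same wild-type values.

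**Figure D1:**
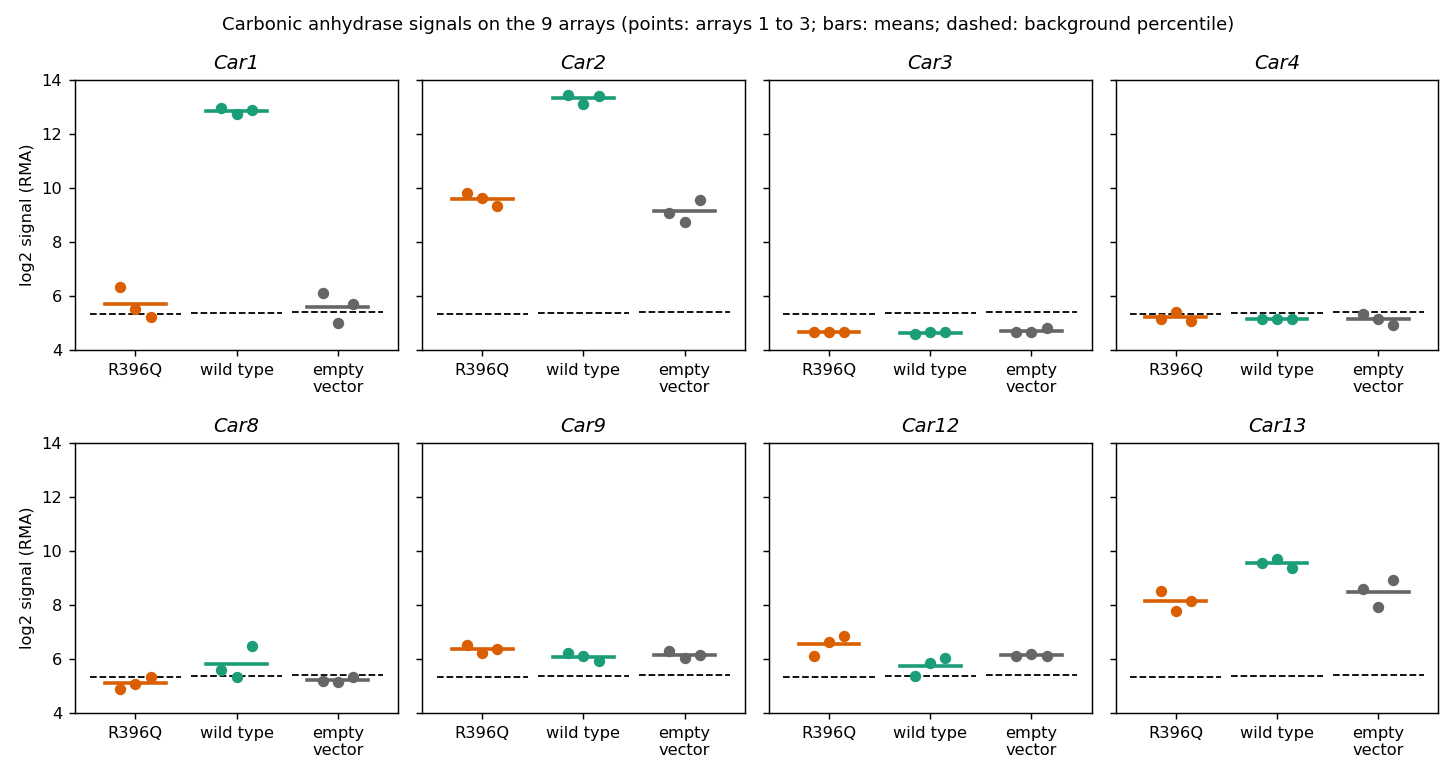
Log2 RMA signal (vertical axis) of each of the 8 carbonic anhydrases on the 9 arrays, by group from left to right R396Q, wild type and empty vector; points are arrays, solid bars are group means and dashed lines the background percentile. Wild-type arrays stand apart for Car1 (12.73 to 12.97) and Car2 (13.10 to 13.44), while Car3 and Car4 stay under the dashed line in every group mean.

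Background was set from odorant, vomeronasal and trace amine receptor genes, which are not known as genes of blood progenitors. The 95th percentile of the group means of these 1241 clusters was 5.34 in R396Q, 5.39 in wild-type and 5.42 in empty-vector cells, and 58.0%, 58.0% and 57.3% of all clusters lay above it. Car3 and Car4 were near background, that is, not above this percentile, in all 3 groups. Car8 was near background in R396Q and empty-vector cells and above it in wild-type cells. Car1 was just above the percentile in R396Q and empty-vector cells, by 0.36 and 0.19, and under the 99th percentile of the same receptor clusters (5.96 and 6.07). Car2, Car9, Car12 and Car13 were above the 95th percentile in every group, but the wild-type mean of Car12 (5.77) was under the 99th (6.04). In these cells of females, the Y-linked Sry cluster had means of 7.97, 7.86 and 7.77 in R396Q, wild-type and empty-vector cells. These exceed every group mean of Car9 and Car12, so a cluster can read above the percentile without its gene. The highest mean of the other Y-linked clusters was 5.01.

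Upstream sequence from RefSeq (GRCm38.p6) was at hand for 3 of the 8 members, Car4, Car9 and Car12, and for all 8 other family genes. GATA factors are known to bind the letters AGATAA or AGATAG and likewise TGATAA or TGATAG, which were searched on both strands in the 250 bases before the start, and 26.5% of 32851 windows of that length hold 1 or more. Car9 had 1 match, at position -228 from the start, and Car4, Car12 and Car5b, the family gene outside the 8 that changed, had 0 in their windows. Of the family genes near background, Car7 had 2 matches in 1 of its 3 windows, Car10 and Car11 had 1 match each in 1 of 2 windows, and the windows of Car5a, Car6 and Car14 had 0, as did that of Car15. The windows of Car9 (chr4:43506776-43507025, plus strand) and Car5b (chrX:164028011-164028260, minus strand) are shown as examples picked with their results known, a window with the letters and the window of the gene that changed; capitals mark the match.
Car9: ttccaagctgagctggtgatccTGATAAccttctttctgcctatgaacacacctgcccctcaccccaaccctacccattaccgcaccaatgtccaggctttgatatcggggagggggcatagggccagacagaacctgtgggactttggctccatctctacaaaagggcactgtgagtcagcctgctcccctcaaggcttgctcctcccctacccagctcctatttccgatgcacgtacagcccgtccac
Car5b: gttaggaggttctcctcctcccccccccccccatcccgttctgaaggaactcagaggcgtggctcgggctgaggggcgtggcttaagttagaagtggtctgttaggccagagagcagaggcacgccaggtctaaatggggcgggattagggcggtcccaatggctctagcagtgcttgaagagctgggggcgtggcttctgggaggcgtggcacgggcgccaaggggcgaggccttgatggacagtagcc
The matching letters in Car9 are a description of this window and not a bound site, and their absence from Car5b says nothing about other stretches of that gene.

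Car1, a cytosolic enzyme abundant in red cells, had signals of 12.97, 12.73 and 12.87 in wild-type cells, against 6.12, 5.00 and 5.70 in empty-vector cells. Every wild-type array was far above every empty-vector array. The rise was 7.25 (SE 0.357, 95% confidence interval 6.41 to 8.10), or 152-fold (adjusted p = 0.00018), and it was the 4th largest rise among the 21072 clusters. The empty-vector level is close to background, and the 95% confidence interval of the rise ran from 84.8-fold to 273.5-fold. The wild-type mean lay 111-fold above the 99th percentile of the receptor clusters in empty-vector cells. The signals come from sorted cells in bulk, in which more cells of a type and more RNA per cell cannot be told apart.

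In R396Q cells Car1 had signals of 6.34, 5.51 and 5.23, which overlap the empty-vector range. The difference of R396Q from empty vector was 0.09 (95% confidence interval -0.76 to 0.93, adjusted p = 0.974), so these arrays leave room for anything between 0.592-fold and 1.91-fold. Relative to wild type, Car1 fell by 7.16 in R396Q cells, a 143-fold lower signal (95% confidence interval -8.01 to -6.32, adjusted p = 0.000231). The wild-type mean lay 119-fold above the 99th percentile of the receptor clusters in R396Q cells. The call of Car1 held in each of the 9 fits that left out an array, in both comparisons with wild type.

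Car2, the fast cytosolic enzyme of red cells, osteoclasts and kidney, had signals of 13.44, 13.10 and 13.40 in wild-type cells, against 9.08, 8.75 and 9.56 in empty-vector cells. It was well above background already in cells without added GATA2. It rose by 4.18 (SE 0.224, 95% confidence interval 3.65 to 4.71), or 18.1-fold (adjusted p = 0.000235), which placed it 28th among all rises. R396Q cells had signals of 9.80, 9.61 and 9.33, within or just above the empty-vector range. Their difference from empty vector was 0.45 (95% confidence interval -0.08 to 0.98, adjusted p = 0.492), an interval of 0.946-fold to 1.97-fold, and relative to wild type Car2 fell by 3.73, or 13.3-fold (95% confidence interval -4.26 to -3.20, adjusted p = 0.000435).

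Car13, a cytosolic enzyme found in many tissues, had signals of 8.54, 7.78 and 8.15 in R396Q cells and 9.56, 9.71 and 9.39 in wild-type cells. The groups did not overlap, and Car13 fell by 1.40 in R396Q relative to wild-type cells, or 2.63-fold (SE 0.282, adjusted p = 0.036). This call was lost without any of the R396Q or wild-type arrays or empty vector array 1 (adjusted p up to 0.113) and kept without empty vector arrays 2 or 3. Empty-vector cells had 8.58, 7.95 and 8.93, all under the wild-type arrays and overlapping the R396Q arrays. Wild type differed from empty vector by 1.06 (2.09-fold, 95% confidence interval 0.39 to 1.73, adjusted p = 0.0669), which passed the threshold after median subtraction (0.0405), after quantile normalization (0.0321) and when dim or tied clusters were left out (0.0299 to 0.0425), but not with the replicate number as a block (0.0551). R396Q differed from empty vector by -0.33 (95% confidence interval -1.003 to 0.33, adjusted p = 0.709).

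**Figure D2:**
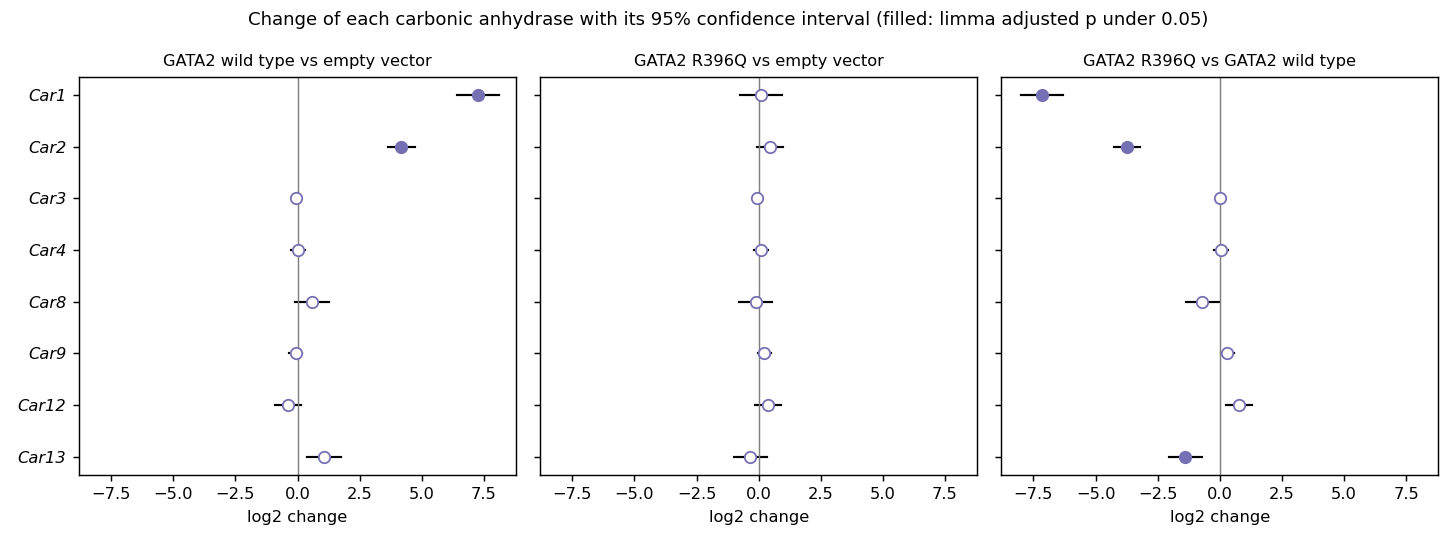
Log2 change (horizontal axis) of each carbonic anhydrase in 3 panels, wild type against empty vector, R396Q against empty vector and R396Q against wild type; points are limma estimates, lines their 95% confidence intervals, and filled points have an adjusted p under 0.05. Car1 and Car2 are filled on the right in the first panel, 0 points are filled in the second, and Car1, Car2 and Car13 are filled on the left in the third.

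Car12, a membrane enzyme whose catalytic site faces outward, had signals of 6.14, 6.64 and 6.87 in R396Q cells, 5.40, 5.86 and 6.04 in wild-type cells and 6.14, 6.19 and 6.14 in empty-vector cells. Wild-type cells had the lowest mean, 5.77, against 6.55 in R396Q and 6.16 in empty-vector cells. The wild-type mean was under the 99th percentile of the receptor clusters. R396Q differed from wild type by 0.79, or 1.73-fold (SE 0.22, 95% confidence interval 0.27 to 1.31), with no overlap and an adjusted p of 0.104. With the replicate number as a block the adjusted p was 0.0312, and the difference within each number ran from 0.75 to 0.83. Wild type differed from empty vector by -0.39 (adjusted p = 0.361) and R396Q from empty vector by 0.39 (adjusted p = 0.546).

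Car9, also an outward-facing membrane enzyme, is a well-known target of the hypoxia response. It had signals of 6.55, 6.23 and 6.40 in R396Q cells, 6.23, 6.11 and 5.93 in wild-type cells and 6.31, 6.07 and 6.15 in empty-vector cells. The arrays of the groups lay within or close to each other. R396Q differed from wild type by 0.30 (95% confidence interval 0.04 to 0.56, adjusted p = 0.215), R396Q from empty vector by 0.22 (adjusted p = 0.503) and wild type from empty vector by -0.08 (adjusted p = 0.725).

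Car8, a family member that lacks catalytic activity and is known from cerebellar Purkinje cells, had signals of 4.89, 5.10 and 5.34 in R396Q cells, 5.60, 5.35 and 6.49 in wild-type cells and 5.21, 5.14 and 5.34 in empty-vector cells. The wild-type mean of 5.81 was above the 95th but under the 99th percentile of the receptor clusters, and array 3 was the highest of its group. Wild type differed from empty vector by 0.58 (95% confidence interval -0.09 to 1.25, adjusted p = 0.294) and R396Q from wild type by -0.70 (adjusted p = 0.261), in each case without overlap. R396Q differed from empty vector by -0.12 (adjusted p = 0.931).

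Car4, an enzyme held on the outer membrane by a lipid anchor, had signals of 5.16, 5.41 and 5.08 in R396Q cells, 5.16, 5.15 and 5.16 in wild-type cells and 5.33, 5.16 and 4.93 in empty-vector cells. Car3, a cytosolic enzyme of muscle, fat and liver with low activity, had signals of 4.67, 4.68 and 4.67 in R396Q cells, 4.61, 4.67 and 4.67 in wild-type cells and 4.67, 4.66 and 4.83 in empty-vector cells. The group means of both were at the level of the receptor genes, and their differences between groups ran from -0.07 to 0.08 (adjusted p 0.441 to 0.957). The 95% confidence intervals of these differences lay between -0.19 and 0.14 for Car3 and between -0.26 and 0.36 for Car4. In all, 4 members were higher and 1 lower without overlap in wild type against empty vector, where 10.8% and 11.8% of all clusters were so (22.6% in all). In R396Q against wild type these counts were 1 higher and 4 lower, where 11.0% and 9.59% of clusters were so (20.6% in all), and in R396Q against empty vector they were 0 and 0, where the shares were 6.98% and 7.1% (14.1% in all).

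Car13, Car1, Car3 and Car2 lie next to each other on chromosome 3 in the RefSeq order, so the 3 members that were called and 1 that was not share a gene group. The order along the chromosome was Ralyl, Slc7a12, Lrrcc1, E2f5, Rbis, Car13, Car1, Car3 and Car2. In wild type against empty vector, Car13 differed by 1.06, Car1 by 7.25, Car3 by -0.07 and Car2 by 4.18, so the 2 called genes flank a gene that stayed at background. Beyond Car13, E2f5, a cell cycle transcription factor, fell by 0.55 in wild-type cells (adjusted p = 0.0396, past the threshold in 1 of 9 fits without an array), and Lrrcc1, a centrosome protein, differed by -0.16 (adjusted p = 0.696). Ralyl and Slc7a12 were near background in all groups, and Rbis had no value with 1 symbol. On the other side of Car2, the next genes in this order, Gm9733, Sirpb1a, Sirpb1b, Sirpb1c and Gm5150, had no value with 1 symbol.

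**Figure D3:**
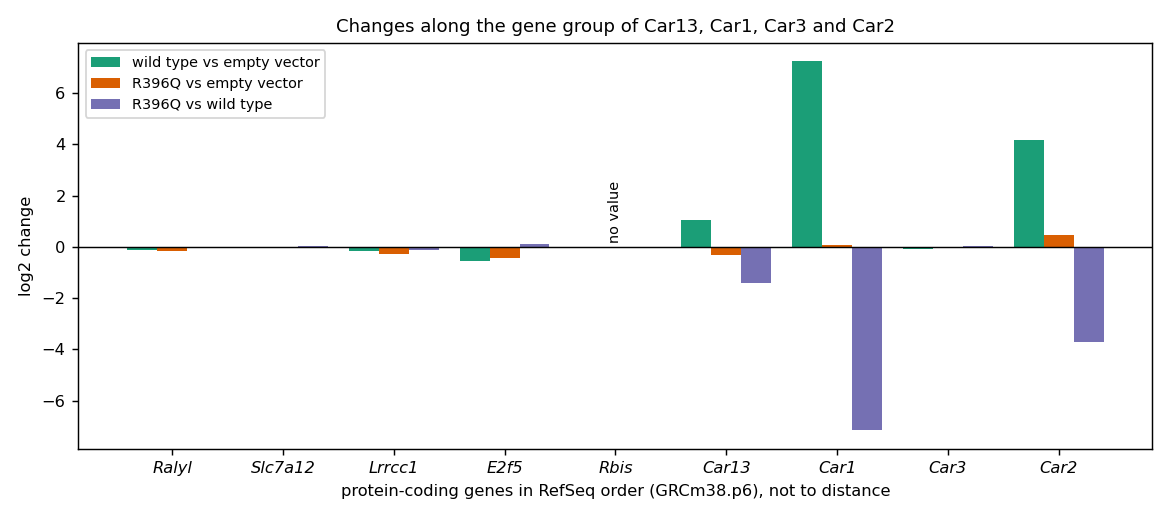
Log2 change (vertical axis) of the genes around the carbonic anhydrase group, in RefSeq order and not to distance; bars from left to right are wild type against empty vector, R396Q against empty vector and R396Q against wild type, and bars carry no error. The bars of Car1 (7.25, 0.09 and -7.16) and Car2 (4.18, 0.45 and -3.73) stand on both sides of Car3, whose bars lie within 0.1 of 0.

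Of the other family genes, 1 of 8 rose in wild-type cells, where 4.64% of all clusters rose. This was Car5b, which encodes a mitochondrial enzyme and lies on chromosome X. Car5b had signals of 7.24, 6.28 and 6.43 in R396Q cells, 9.945, 9.60 and 10.19 in wild-type cells and 6.51, 6.72 and 7.76 in empty-vector cells. Wild-type arrays were above all others, and the rise over empty vector was 2.92, or 7.54-fold (SE 0.392, 95% confidence interval 1.99 to 3.84, adjusted p = 0.00599). R396Q cells were 9.58-fold lower than wild-type cells (-3.26, adjusted p = 0.00519) and differed from empty vector by -0.35 (adjusted p = 0.802). Car15, a lipid-anchored membrane enzyme of mice, had 5.33, 5.45 and 5.52 in R396Q cells, 5.80, 6.21 and 5.52 in wild-type cells and 5.48, 5.53 and 5.39 in empty-vector cells, and passed no test (adjusted p = 0.231 for wild type against empty vector). The other 6, Car5a of mitochondria, the secreted Car6, the cytosolic Car7, the non-catalytic Car10 and Car11 and the transmembrane Car14, were near background in all 3 groups.

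**Figure D4:**
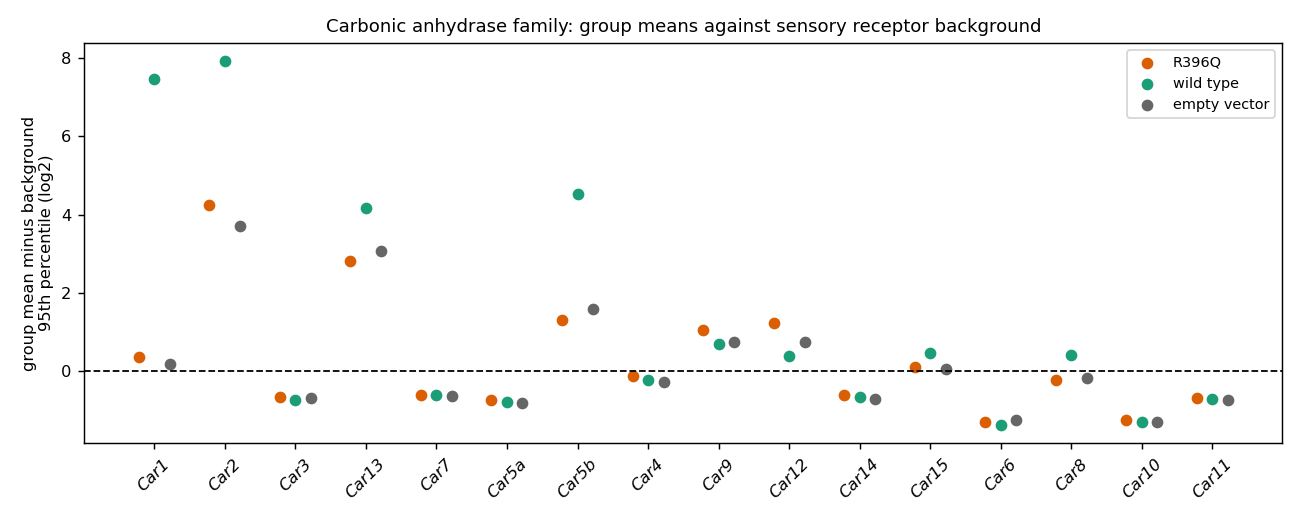
Group mean log2 signal minus that group's background percentile (vertical axis) for all carbonic anhydrases on the array; orange points are R396Q, green wild type and grey empty vector, and the dashed line at 0 is the 95th percentile of sensory receptor clusters. Green points of Car1, Car2, Car13 and Car5b lie above the points of the other groups. By less, so do those of Car8 and Car15, which passed no test. In 8 family genes, Car3, Car4 and 6 of the others, all 3 points lie under the line.

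The products and partners of the enzymes were read from lists of genes. Of 15 measured bicarbonate and chloride exchangers, 12 were near background in all groups and 0 passed the limma test in any comparison. At an unadjusted p under 0.05 they numbered 2 in wild type against empty vector, where 22.1% of all clusters were so. They numbered 1 in R396Q against empty vector (12.1% of all clusters) and 1 in R396Q against wild type (17.7%). Slc4a1, the red cell anion exchanger, had 4.72, 4.74 and 4.72 in R396Q cells, 5.64, 4.76 and 4.87 in wild-type cells and 4.76, 4.74 and 4.72 in empty-vector cells. All of its group means were near background, and array 1 of wild type was the highest. The gut and kidney exchangers Slc26a3 and Slc26a1 differed by 0.41 and 0.19 in wild type against empty vector (adjusted p = 0.164 and 0.176).

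Of 8 measured gas and water channels, 4 rose in wild-type cells relative to empty vector, where 8.99% of all clusters changed. In R396Q cells 0 changed relative to empty vector (1.23% of all clusters), and 4 fell relative to wild-type cells (5.75%). The list medians were 1.02, -0.01 and -0.70. The other 4 were near background in all groups. Aqp1, the water channel of red cells, had 7.17, 6.62 and 6.16 in R396Q cells, 13.43, 11.57 and 13.36 in wild-type cells and 6.18, 6.27 and 5.57 in empty-vector cells. Its rise with wild type was 6.78 (adjusted p = 0.00078). Rhag, the red cell Rhesus-associated gas channel, rose by 3.79 (adjusted p = 0.00377). The Rhesus protein Rhd rose by 1.96 (adjusted p = 0.0305, past the threshold in 3 of 9 fits without an array). Aqp9, a channel for water and glycerol, rose by 1.84 (adjusted p = 0.00647). Relative to wild type, the falls of Rhd and Aqp9 in R396Q cells had limma adjusted p of 0.0443 and 0.0431. They passed in 2 and 1 of 9 fits without an array.

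Among 13 measured proton and lactate transporters, 0 rose and 2 fell in wild-type cells relative to empty vector (8.99% of all clusters changed). In R396Q against empty vector 0 passed (1.23% of all clusters), and 1 was higher in R396Q than in wild-type cells (5.75%). With the replicate number as a block, 1 rose and 2 fell with wild type, and 1 fell with R396Q (Slc16a1, adjusted p = 0.0203). With the block, 3 were higher and 1 lower in R396Q than in wild-type cells. The block called 17.4%, 3.0% and 13.1% of all clusters in wild type against empty vector, R396Q against empty vector and R396Q against wild type. Slc16a1, a carrier of lactate with a proton, fell by 0.96 (adjusted p = 0.00942), and Hvcn1, the voltage-gated proton channel of white blood cells, fell by 1.39 (adjusted p = 0.0146) and was 1.37 higher in R396Q than in wild-type cells (adjusted p = 0.0211, past the threshold in 5 of 9 fits without an array). Of 17 subunits of the vacuolar proton pump, the partner of Car2 in osteoclasts, 2 rose and 1 fell in wild-type cells, and 0 passed in each of the other comparisons. With the block, 3 rose and 1 fell in wild-type cells, and 2 fell in R396Q against empty vector. Likewise 1 was higher and 3 were lower in R396Q than in wild-type cells, beside the block's shares of all clusters given above. In the fit without the block, the subunit that fell in wild-type cells was Tcirg1, the osteoclast-enriched subunit, which also occurs in white blood cells (-1.84, adjusted p = 0.00405). Those that rose were Atp6v0a1 (1.29, adjusted p = 0.0444) and Atp6v0a2 (0.66, adjusted p = 0.0272), which passed in 1 and 3 of 9 fits without an array.

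Hypoxia response genes, the setting in which Car9 is best known, moved in both directions. Of 29 measured, 4 rose and 6 fell in wild-type cells relative to empty vector, where 8.99% of all clusters changed. In R396Q against empty vector 0 passed (1.23% of all clusters). There, 5 had an unadjusted p under 0.05 in limma (12.1% of all clusters), and 1 was called with the replicate block (3.0%). In R396Q relative to wild-type cells 7 were higher and 2 lower, where 5.75% of all clusters changed. The glucose transporter Slc2a3 rose by 2.18 with wild type (adjusted p = 0.00212) and the glycolytic enzyme Hk1 by 0.72 (adjusted p = 0.00685). Egln1, an oxygen-sensing hydroxylase, fell by 1.61 (adjusted p = 0.00331) and Pdk1, a kinase that holds back pyruvate oxidation, by 1.04 (adjusted p = 0.00368). The list medians were -0.09, 0.14 and 0.13.

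Most markers of red cell precursors rose in wild-type cells, as did Car1 and Car2. Of 18 measured erythroid markers, 14 rose in wild-type cells relative to empty vector, where 8.99% of all clusters changed. In R396Q cells 0 changed relative to empty vector (1.23% of all clusters), and 14 fell relative to wild-type cells (5.75%). The list medians were 1.69, -0.04 and -1.76. The mean over the list ran from 5.96 to 6.09 on R396Q arrays, from 7.82 to 8.82 on wild-type arrays and from 6.00 to 6.17 on empty-vector arrays, and the summed linear signal from 2950 to 4680, from 7560 to 17100 and from 2940 to 4640. Klf1, a master regulator of red cell genes, rose by 4.71 (adjusted p = 0.00106), Tspan33 by 4.71 (adjusted p = 0.00078), Cldn13 by 5.73 (adjusted p = 0.000314) and Hemgn by 1.86 (adjusted p = 0.00078). Rhag stands in both this list and the channel list. Trim10 was near background in all groups, and Sptb, Ank1, Epb42, Cldn13 and Hbb-bh1 in R396Q and empty-vector cells but not in wild-type cells. Wild-type array 2 had the lowest erythroid mean of its group, 7.82 against 8.82 and 8.59 on arrays 1 and 3, and on that array Car1 (12.73), Car2 (13.10) and Car5b (9.60) were also the lowest of their group, while Car13 (9.71) was the highest.

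**Figure D5:**
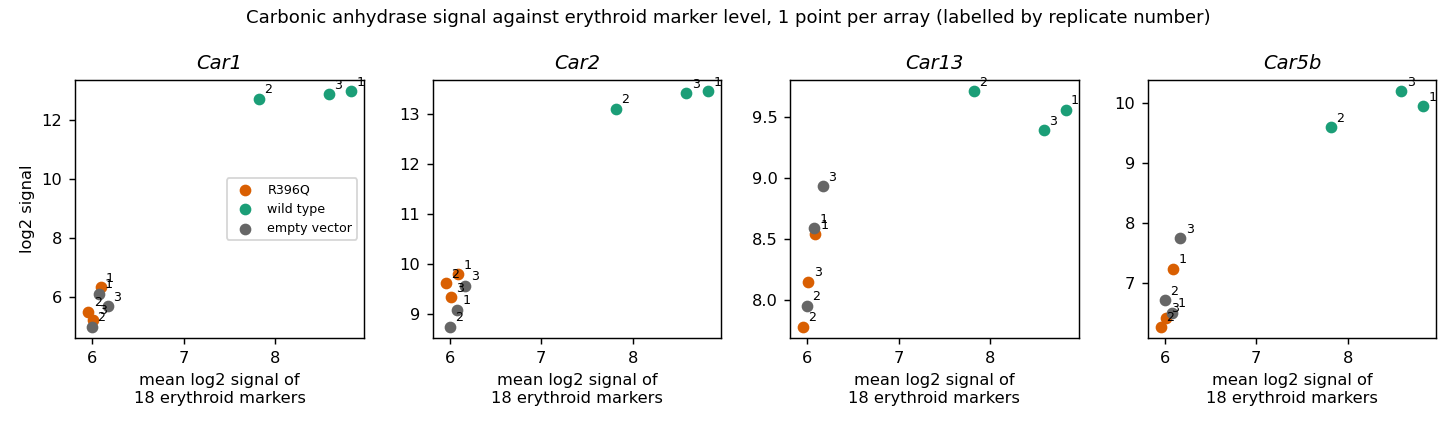
Log2 signal of Car1, Car2, Car13 and Car5b (vertical axes, each on its own scale) against the mean log2 signal of 18 erythroid markers (horizontal axis), 1 point per array labelled by its number, in orange for R396Q, green for wild type and grey for empty vector. The wild-type arrays lie apart at erythroid means of 7.82 to 8.82, and the other 6 arrays lie between 5.96 and 6.17.

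Markers of other blood lineages differed between the groups as well. Of 13 megakaryocyte markers, 9 rose in wild-type cells relative to empty vector and 7 fell in R396Q relative to wild-type cells, and of 16 mast cell and basophil markers, 8 rose and 5 fell in these comparisons. Of 15 monocyte and macrophage markers, 10 fell in wild-type cells and 4 in R396Q cells relative to empty vector, and of 16 neutrophil markers, 5 and 1 fell. With the replicate number as a block, 13 and 2 neutrophil markers fell, and 11 in place of 3 were higher in R396Q than in wild-type cells. Over all clusters the block raised the share called from 8.99% to 17.4% in wild type against empty vector. That share rose from 1.23% to 3.0% in R396Q against empty vector and from 5.75% to 13.1% in R396Q against wild type. The mean over the megakaryocyte list ran from 7.33 to 8.13 on R396Q arrays, from 9.66 to 10.44 on wild-type arrays and from 7.43 to 7.94 on empty-vector arrays, and over the mast cell list from 8.97 to 9.51, from 10.22 to 11.65 and from 7.81 to 9.09. Of 8 eosinophil markers, 1 rose with wild type (4 with the block), as did 1 of 11 epithelial and stromal markers. Of 10 osteoclast markers, 8 were near background in all groups and 1 rose with wild type, the acid phosphatase Acp5 (1.10, adjusted p = 0.0361, past the threshold in 3 of 9 fits without an array). The part of any of these cell types in the change of Car1, Car2 and Car13 was not tested.

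The genes most like Car1 and Car2 were taken by Pearson correlation over the 9 arrays among 1136 clusters that varied by 2 or more. For Car1 they were Vwf, a clotting factor of platelets and endothelium (r = 0.994, rho = 0.867), the lipid transporter Mfsd2b (0.994, rho = 0.767), Ces2g (0.993, rho = 0.767), Car2 (0.991, rho = 0.883) and Klf1 (0.989, rho = 0.929). For Car2 they were Narf (0.994, rho = 0.983), Mfsd2b (0.991, rho = 0.85), Car1, the red cell adhesion molecule Icam4 (0.989, rho = 0.933) and Vwf (0.989, rho = 0.733). The arrays fall into wild type and the rest for all of these genes, so such an r mostly restates that gap. After each group's mean was taken away, Car1 and Car2 had r = 0.647 over the 9 arrays, Car1 and Car13 0.676, and Car2 and Car13 0.636. These are descriptions over arrays that also share replicate numbers. Car1 varied mostly among R396Q and empty-vector arrays (SD 0.574 and 0.564, against 0.119 in wild type). In those 2 groups its mean was under the 99th percentile of the receptor clusters.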

How the data were processed

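The authors deposited log2 signals per transcript cluster, computed by RMA with Affymetrix's Expression Console software (per the submitters' processing notes, which give no version). RMA corrects background, normalizes between arrays and shrinks low signals together. The cluster identifiers are of a later whole-transcript design than the Mouse Exon 1.0 ST array of the labels. Array medians ran from 6.065 to 6.194 over the 9 arrays. Symbols came from the platform annotation, with 418 of 18236 matched symbols updated (18992 clusters had 1 symbol, 1390 several, 690 none).

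Each of 21072 clusters was tested 2-sided with limma 3.58.1 in R 4.3.3, using all 9 arrays and 1 mean per group (6 residual and 0.956 prior degrees of freedom), after a check on simulated data. Members and lists were chosen with earlier results of these data known. Named genes were all carbonic anhydrases, Gata2, per list up to 4 called in wild type against empty vector with the smallest p (up to 2 where fewer than 2 passed), and the 5 clusters most correlated with each member past the F-test; the neighbours on chromosome 3, Slc4a1 and the erythroid markers near background were named after their values were seen. Arrays with the same replicate number deviated together from their group means (r 0.451 to 0.693 in 9 pairs). The number was therefore tried as a block. In 18 pairs of different numbers r was -0.537 to -0.0900. Deviations cancel within a group, so r of different numbers must then be negative on average and is no separate result. Alternatives were this block, fits of only the groups compared, trend and robust options, array weights, median subtraction and quantile normalization. Further ones were leaving out dim or tied clusters, averaging the clusters of a symbol and leaving out each array. Each member had 1 cluster, so the averaging left its signals as they were. With 3 arrays per group, their number limits the precision. Protein sequences were not used here.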

Additional observations from a re-analysis of the deposited data

How the results depend on the processing

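The calls of Car1 and Car2 held in both comparisons with wild type under every alternative run, and 0 members were called in R396Q against empty vector under any. Over the 8 members and Car5b, settings other than leaving out an array left 244 of 252 results on the same side. They made 6 pass the threshold (Car12 with the block, Car13 as given above). They reversed 2, Car4 in wild type against empty vector (-0.0064 with array weights, -0.0043 after median subtraction, neither called). Among these settings only array weights, median subtraction and quantile normalization could change a member's log2 difference. The others could change only its p, so there the sign was fixed in advance. The replicate block raised the calls over all clusters to 3667, 632 and 2750 in wild type against empty vector, R396Q against empty vector and R396Q against wild type, and fits of only the groups compared gave 1026, 94 and 772, where the main counts were 1894, 259 and 1211. Without each array in turn these counts ran from 1285 to 1724, from 85 to 304 and from 650 to 1153. The block called 4 members in the F-test in place of 2, where its share of all clusters was 17.1% in place of 8.31%, and changed no other call of a member than those of Car12 and the F-test. Leaving out an array turned the sign of differences that were not called: in R396Q against empty vector, Car1 ran from -0.2336 to 0.345, Car3 from -0.0786 to 0.0066, Car4 from -0.0266 to 0.1741 and Car5b from -0.6409 to 0.0341, and Car4 ran from -0.0855 to 0.1153 in wild type against empty vector and from -0.0365 to 0.1261 in R396Q against wild type. Members near background in all groups numbered 2 by the 95th percentile, 3 by the 99th, 5 by the highest Y-linked cluster (Sry) and 0 by the lower quartile of all clusters. The cause of these shifts was not tested. The median change over all clusters stayed within 0.1 of 0 under each scaling. Levels near the receptor background, as of Car3, Car4 and Car8, limit what these arrays can show.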
